A study of Mus musculus with 4 samples.

Results

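Outside the endothelium, lung cells of Fundc1 knockout mice were compared between HySu (hypoxia together with SU5416) and normoxia, class by class, from all cell barcodes of the 2 knockout libraries. These libraries held 13292 of the 25982 deposited barcodes, 4128 in the HySu knockout library (HSK) and 9164 in the normoxia knockout library (NK). After filtering, 3543 HSK and 6212 NK cells were kept. Of these, 2927 HSK and 3899 NK cells fell in 6 marker-named classes with at least 50 cells in each library: alveolar macrophages, interstitial macrophages, classical monocytes, alveolar type 2 cells, secretory club cells and fibroblasts. The 136 HSK and 160 NK cells of vascular or lymphatic endothelial clusters were left out.

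The animals were 11-week-old mice of the FUNDC1-KO genotype, with wild-type (WT) mice under the same 2 conditions (HSW for HySu and NW for normoxia). SU5416 was given to HySu mice in 3 weekly doses, and controls received vehicle and stayed in normoxia. The oxygen level, the length of hypoxia and the way the gene was deleted are not given in the sources used here. The series title speaks of an endothelial deficiency of FUNDC1, whereas the library labels name only the knockout. Cells of 5 mice were pooled into each library, so each group was a single library and no difference could be set against the spread between mice. Intervals below are 95% intervals that cover counting error only. Hypoxia and SU5416 were given together and cannot be told apart.

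As background, FUNDC1 is a receptor of the outer mitochondrial membrane that recruits the autophagy machinery to mitochondria in hypoxia. SU5416 (semaxanib) inhibits the VEGF receptor kinases, and it is also a known ligand of the aryl hydrocarbon receptor (AHR). Ligand-bound AHR pairs with ARNT and binds DNA at a short core motif, GCGTG, near genes such as Cyp1a1 and Cyp1b1, which encode cytochrome P450 enzymes, and Ahrr, which encodes the receptor's repressor. Alveolar macrophages clear surfactant from the airspace. Alveolar type 2 cells make that surfactant, club cells line the small airways and secrete secretoglobins, and fibroblasts deposit the matrix.

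The promoters of these 3 AHR target genes are shown as background to the results on AHR targets. Each sequence is 5′ to 3′ on the gene's own strand, from 250 bases before the annotated start to 50 after it, taken from RefSeq on GRCm38.p6. Capitals mark the core, written GCGTG or, on the other strand, CACGC.
Cyp1a1, chr9:57697363-57697662, plus strand: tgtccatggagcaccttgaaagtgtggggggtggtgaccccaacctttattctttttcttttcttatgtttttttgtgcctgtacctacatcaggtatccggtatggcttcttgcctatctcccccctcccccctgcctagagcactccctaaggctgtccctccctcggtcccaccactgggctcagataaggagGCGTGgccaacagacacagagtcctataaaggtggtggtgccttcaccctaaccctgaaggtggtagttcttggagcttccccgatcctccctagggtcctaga
Cyp1b1, chr17:79715012-79715311, minus strand: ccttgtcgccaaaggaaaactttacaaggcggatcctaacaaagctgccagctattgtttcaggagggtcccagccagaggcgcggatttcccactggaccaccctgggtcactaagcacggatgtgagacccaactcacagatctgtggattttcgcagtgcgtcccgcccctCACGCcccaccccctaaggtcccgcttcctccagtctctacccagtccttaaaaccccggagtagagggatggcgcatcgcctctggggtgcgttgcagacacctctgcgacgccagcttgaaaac
Ahrr, chr13:74292282-74292581, minus strand: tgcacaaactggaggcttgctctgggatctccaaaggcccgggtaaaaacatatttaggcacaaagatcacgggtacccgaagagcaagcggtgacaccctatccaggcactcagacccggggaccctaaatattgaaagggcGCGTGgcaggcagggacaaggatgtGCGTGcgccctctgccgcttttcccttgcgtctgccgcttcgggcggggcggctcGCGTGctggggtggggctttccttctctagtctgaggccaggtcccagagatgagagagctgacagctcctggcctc
The Cyp1a1 and Cyp1b1 windows held 1 match each and the Ahrr window held 3. Among other AHR targets described below, the Nqo1 window held 0 matches and the Tiparp window held 1. On either strand, the core was present in 10639 of 32851 annotated mouse promoters of the same length (32.4%), so a match alone is common. A match describes these letters only.

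Fundc1 itself was measured first as a check of the labels. In alveolar macrophages, NK held 15 Fundc1 UMIs (1.00 CPM, a gene's UMIs scaled to the same total in every class and library) and HSK held 2 (0.145 CPM), while NW and HSW held 52.2 and 53.1 CPM. In classical monocytes NK held 6 UMIs (1.71 CPM) and HSK held 0, which allows up to 2.18 CPM, against 47.8 CPM in NW and 38.7 CPM in HSW. In alveolar type 2 cells the levels were 0.786 CPM in NK (5 UMIs) and 0.109 CPM in HSK (1 UMI), against 29.9 and 30.6 CPM in NW and HSW. Both knockout libraries were therefore far below both wild-type libraries in each of these non-endothelial classes. Interstitial macrophages held 1 UMI in NK (1.73 CPM) and 0 in HSK (up to 4.21 CPM), with 37.3 and 42.1 CPM in NW and HSW. Club cells held 0 UMIs in both knockout libraries, which allows up to 3.31 CPM in NK and 1.32 CPM in HSK, with 19.4 and 17.1 CPM in NW and HSW. Fibroblasts held 0 in NK (up to 2.56 CPM) and 1 in HSK (1.10 CPM), with 32.1 and 44.9 CPM in NW and HSW. Fundc1 was therefore at or near 0 in every non-endothelial class compared.

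The 2 knockout libraries differed in depth. NK held 63501686 UMIs in all and HSK 41308071, and the smallest deposited barcode had 3182 UMIs in NK and 4726 in HSK. The median was 5355 UMIs per barcode in NK and 7845.5 in HSK. Barcodes with marker UMIs of a second lineage made up 32.2% of NK and 14.2% of HSK, and they were removed. NK and HSK shared 35 barcode sequences, 0.382% of NK and 0.848% of HSK. After filtering, 16.9% of NK cells and 7.54% of HSK cells fell in clusters that met no marker rule and stayed unnamed.

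The makeup of the kept cells differed between the 2 libraries. Alveolar type 2 cells made up 20.3% of NK cells (1259) and 34.0% of HSK cells (1206), a ratio of shares of 1.68 (1.55 to 1.82). Club cells went from 1.13% to 2.65%, a ratio of 2.35 (1.71 to 3.26), and interstitial macrophages from 1.61% to 2.37%, a ratio of 1.47 (1.09 to 1.99). Classical monocytes were fewer, 11.1% of NK and 5.62% of HSK cells, a ratio of 0.506 (0.430 to 0.593). Fibroblasts made up 4.02% of NK and 3.70% of HSK cells, and the interval of their ratio held 1 (0.919, 0.738 to 1.14). Alveolar macrophages made up 24.6% of NK and 34.2% of HSK cells, a ratio of 1.39 (1.29 to 1.5). That direction turned when cells under 4726 UMIs were left out of both libraries, to a ratio of 0.923, and the fibroblast ratio became 1.58. The fibroblast ratio was 0.528 where mixed-lineage cells were kept and only Scrublet doublet calls were removed. In that setting a cluster of 150 NK and 55 HSK cells stayed unnamed. The fibroblast markers Dcn, Clec3b and Serpinf1 were among its leading genes, so 0.528 does not cover all fibroblasts. The common minimum left out NK cells alone, because HSK had no barcode below it.

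Lymphocytes and patrolling monocytes made up smaller shares of HSK than of NK. Non-classical monocytes numbered 165 in NK and 2 in HSK, a ratio of shares of 0.0213 (0.00255 to 0.0780). That ratio was 0.0484 (42 and 2 cells) with a common minimum of 4726 UMIs, and 0.181 (520 and 42 cells) where only Scrublet calls were removed. B cells numbered 201 and 14 (ratio 0.122, 0.0656 to 0.210; 0.219 with the common minimum). T and natural killer cells numbered 308 and 48 (ratio 0.273, 0.197 to 0.371; 0.381 with the common minimum and 0.440 with only Scrublet calls removed). These 3 classes thus stayed below 1 with the common minimum, and for B cells the Scrublet setting gave no value. For T and natural killer cells that setting named only a cluster of 193 and 38 cells, with cell cycle genes such as Top2a and Mki67 leading. Clusters closest to T and natural killer cells, with 367 and 19 and with 172 and 13 cells, stayed unnamed. The value of 0.440 therefore does not cover the class. Type 1 conventional dendritic cells, which cross-present antigen, numbered 121 and 27 (ratio 0.391, 0.248 to 0.598), and plasma cells 55 and 16 (ratio 0.510, 0.273 to 0.903). With only Scrublet calls removed, the cluster named type 1 dendritic cells held 286 and 118 cells (ratio 0.922, an interval that held 1). Its leading genes included Mgl2 and Cd209a, markers of type 2 dendritic cells, so it was not the same class. Neutrophils, ciliated cells, mature dendritic cells, alveolar type 1 cells and smooth muscle cells had intervals that held 1. With fewer than 50 HSK cells each, none of these classes was compared gene by gene.

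**Figure D1:**
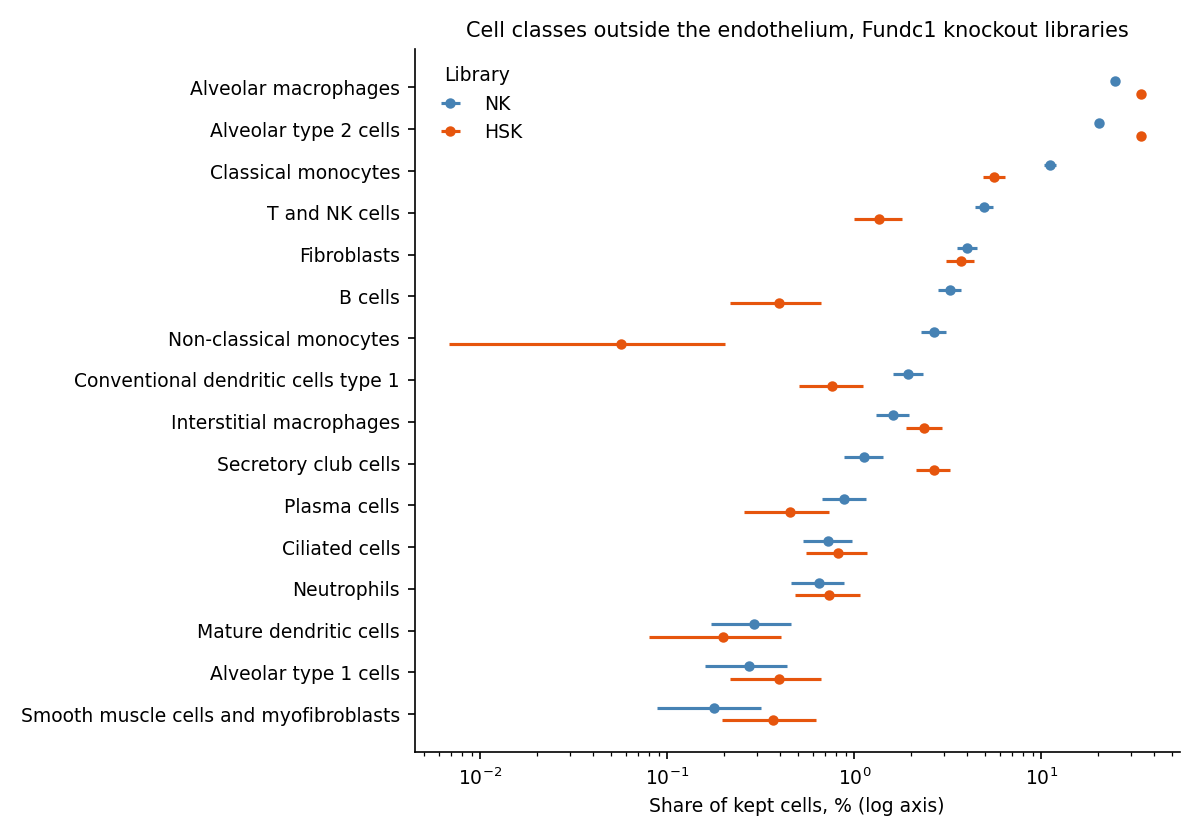
Share of kept cells (percent, log axis) that fell in each cell class outside the endothelium in NK and HSK, with 95% Clopper-Pearson intervals that cover counting error only. Classical monocytes, T and natural killer cells, B cells and non-classical monocytes lie lower in HSK than in NK, and alveolar type 2 and club cells lie higher.

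Expression was compared as CPM of the UMIs summed over each class and library. A gene counted as past 2-fold when its HSK to NK ratio was at least 2 or at most 0.5 and the counting interval excluded 1, among genes with at least 20 UMIs in the pair. In alveolar macrophages 346 of 12827 genes were past 2-fold higher in HSK (2.7%) and 882 lower (6.88%). In interstitial macrophages, of 6819 genes, 307 were higher (4.5%) and 1774 lower (26%). In classical monocytes, of 9707 genes, 292 were higher (3.01%) and 1793 lower (18.5%). In every one of these myeloid classes more genes were lower than higher on this scale. In alveolar type 2 cells, of 11992 genes, 213 were higher (1.78%) and 2566 lower (21.4%). In club cells, of 5708 genes, 15 were higher (0.263%) and 3838 lower (67.2%). In fibroblasts, of 9064 genes, 367 were higher (4.05%) and 1462 lower (16.1%).

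This asymmetry depended on the scaling. The median gene had a log2 HSK to NK ratio of -0.33 in alveolar macrophages, -0.55 in interstitial macrophages, -0.44 in monocytes, -0.60 in alveolar type 2 cells, -1.41 in club cells and -0.37 in fibroblasts. In club cells Scgb1a1 alone took 54.1% of NK UMIs and 77.8% of HSK UMIs, which lowers the CPM of every other gene. Trimmed-mean (TMM) scaling, which discounts such genes, moved the log2 ratios up by 0.29, 0.54, 0.34, 0.59, 1.45 and 0.30 in the same order of classes. After TMM scaling, 678 alveolar macrophage genes were higher (5.29%) and 424 lower (3.31%), and 864 interstitial macrophage genes were higher (12.7%) and 635 lower (9.31%). Among monocyte genes 706 were higher (7.27%) and 748 lower (7.71%), and among fibroblast genes 717 were higher (7.91%) and 695 lower (7.67%). Among alveolar type 2 genes 932 were higher (7.77%) and 517 lower (4.31%), and among club cell genes 490 were higher (8.58%) and 353 lower (6.18%). The higher part of all calls thus went from 28.2% to 61.5% in alveolar macrophages, from 14.8% to 57.6% in interstitial macrophages, from 14.0% to 48.6% in monocytes, from 7.66% to 64.3% in alveolar type 2 cells, from 0.389% to 58.1% in club cells and from 20.1% to 50.8% in fibroblasts. For that reason each gene list below is given by its median log2 ratio minus that of all measured genes of the class, a difference that scaling does not move.

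The ratio also varied with transcript length. Genes whose longest transcript was under 1000 bases had a median log2 HSK to NK ratio of 0.32 in alveolar macrophages, and genes of at least 4000 bases had -0.48. The same pair of medians was 0.40 and -0.81 in interstitial macrophages, 0.45 and -0.69 in monocytes, 0.25 and -0.81 in alveolar type 2 cells, -0.68 and -1.65 in club cells, and 0.50 and -0.62 in fibroblasts. Short transcripts were therefore shifted up against long ones in all 6 classes. The wild-type pair HSW and NW showed the same order with a smaller span, 0.14 against -0.32 in alveolar macrophages and 0.30 against -0.49 in fibroblasts. The part of length in the ratios of single genes was not tested.

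**Figure D2:**
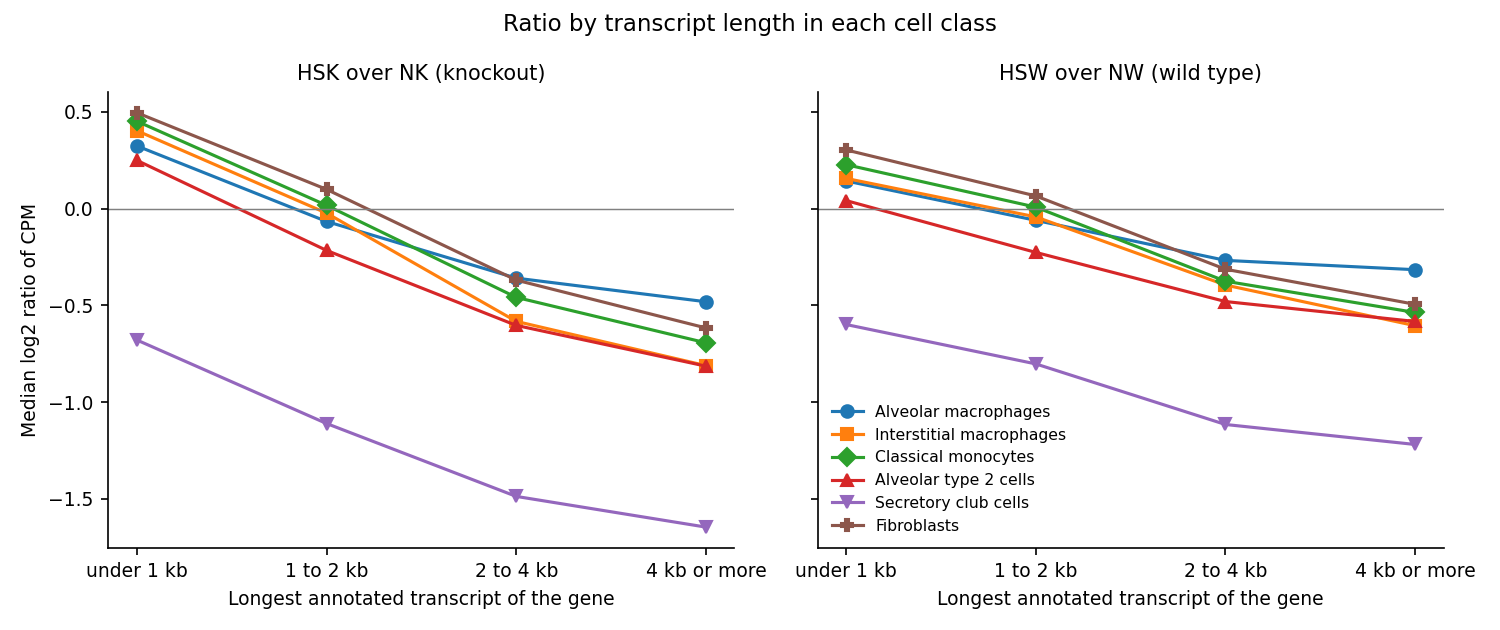
Median log2 ratio of HySu to normoxia (vertical axis) of measured genes in 4 bins of longest transcript length (horizontal axis, bases), for the 6 classes, with the knockout pair on the left and the wild-type pair on the right. All lines slope down from short to long transcripts, and the club cell line lies lowest because of its CPM scale.

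The AHR target list lay above the class median in all 6 classes outside the endothelium, with mixed directions among its members. Cyp1a1 was higher in HSK than in NK in all 6 classes, and Cyp1b1 was past 2-fold higher in the 5 classes in which it was measured. Of the 11 list members, those past 2-fold higher and lower numbered 4 and 0 of 7 measured in alveolar macrophages, 2 and 1 of 6 in interstitial macrophages, and 2 and 1 of 6 in monocytes. They numbered 3 and 1 of 8 in alveolar type 2 cells, 2 and 2 of 8 in club cells, and 2 and 0 of 5 in fibroblasts. Among all measured genes 2.7%, 4.5%, 3.01%, 1.78%, 0.263% and 4.05% were past 2-fold higher, in the same order of classes. The shares lower were 6.88%, 26%, 18.5%, 21.4%, 67.2% and 16.1%. The list median lay above the class median by 1.88, 0.57, 0.62, 0.79, 0.91 and 1.11 on the log2 scale, in the same order. In wild-type lungs the same quantity was 0.90, 1.33, 0.44, 0.48, 1.10 and 0.88.

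Cyp1a1, the classical AHR target, had its highest HSK level of the 6 classes compared in alveolar type 2 cells. It went there from 4.56 CPM in NK (29 UMIs) to 116 CPM in HSK (1059 UMIs), a ratio of 25.4 (17.6 to 38.0), with 2.41 CPM in NW and 64.8 CPM in HSW. In alveolar macrophages the level was 6.70 CPM in NK and 44.4 CPM in HSK (ratio 6.63, 5.36 to 8.27), and 2.24 and 49.9 CPM in NW and HSW. Both HySu libraries were thus above both normoxia libraries. In monocytes the level was 6.86 CPM in NK and 58.1 CPM in HSK (ratio 8.47, 5.31 to 14.0), with 2.67 and 42.9 CPM in NW and HSW. In interstitial macrophages it was 8.67 and 61.8 CPM (ratio 7.13, 2.83 to 23), with 6.22 and 48.3 CPM in the wild-type pair. In club cells it was 14.4 and 52.2 CPM (ratio 3.64, 2.05 to 7.03; 9.94 after TMM scaling), with 0 and 55.8 CPM in the wild-type pair. Fibroblasts had 4.27 and 34.2 CPM (ratio 8.00, 3.08 to 26.4), with 2.14 and 31.3 CPM in NW and HSW. NK levels lay above NW levels in each class, and the knockout ratio in alveolar macrophages was smaller than the wild-type ratio of 22.2. The difference of those log2 ratios was -1.73 (-2.34 to -1.12, counting error only).

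Cyp1b1, which also hydroxylates AHR ligands and steroids, separated the classes further. In alveolar type 2 cells it went from 2.67 CPM in NK (17 UMIs) to 158 CPM in HSK (1450 UMIs), a ratio of 59.2 (36.9 to 102), against 2.71 and 89.2 CPM in NW and HSW. In alveolar macrophages it went from 0.402 to 15.1 CPM (ratio 37.5, 16.9 to 103), and in monocytes from 0.572 to 20.3 CPM (ratio 35.6, 8.97 to 308). The wild-type alveolar macrophages had 0 CPM in NW and 12.8 CPM in HSW. Fibroblasts already held Cyp1b1 in normoxia, with 23.1 CPM in NK and 107 CPM in HSK (ratio 4.64, 3.00 to 7.39), against 33.2 and 97 CPM in NW and HSW. Club cells went from 33.1 to 82.1 CPM (ratio 2.48, 1.68 to 3.78), with 19.4 and 95.1 CPM in the wild-type pair. Interstitial macrophages had 0 UMIs in NK and 18 in HSK (25.3 CPM), under the minimum of 20, with 0 and 17.3 CPM in NW and HSW. The normoxia level of Cyp1b1 was thus higher in fibroblasts and club cells than in the other classes, and the HSK level was highest, of the 6 classes, in alveolar type 2 cells and fibroblasts.

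RNA from other cells can add UMIs of a gene to a class, and endothelial cells held far more of both transcripts. Vascular endothelium had 1094 CPM of Cyp1a1 in NK and 6735 CPM in HSK, and Cyp1b1 went there from 4.39 to 1871 CPM. The number of Cyp1a1 UMIs per Cyp1b1 UMI in HSK was 3.60 in endothelium (3.41 to 3.80), 2.95 in alveolar macrophages (2.51 to 3.47), 2.86 in monocytes (1.84 to 4.56) and 2.44 in interstitial macrophages (1.38 to 4.49). It was 0.730 in alveolar type 2 cells (0.674 to 0.791), 0.636 in club cells (0.501 to 0.805) and 0.320 in fibroblasts (0.206 to 0.483). The 3 non-immune classes therefore held the transcripts in another proportion than the endothelium, and the intervals of monocytes and interstitial macrophages included the endothelial value. The alveolar macrophage interval lay below 3.60 but overlapped the endothelial interval. In HSW the ratio was 0.726 in alveolar type 2 cells, 0.586 in club cells, 0.323 in fibroblasts and 3.23 in endothelium. The 13 endothelial markers summed to 177 CPM in NK and 148 CPM in HSK alveolar macrophages, 156 and 127 CPM in monocytes, and 118 and 114 CPM in alveolar type 2 cells, against 20091 and 14727 CPM in endothelium. The part of free endothelial RNA in the macrophage and monocyte levels was not tested.

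**Figure D3:**
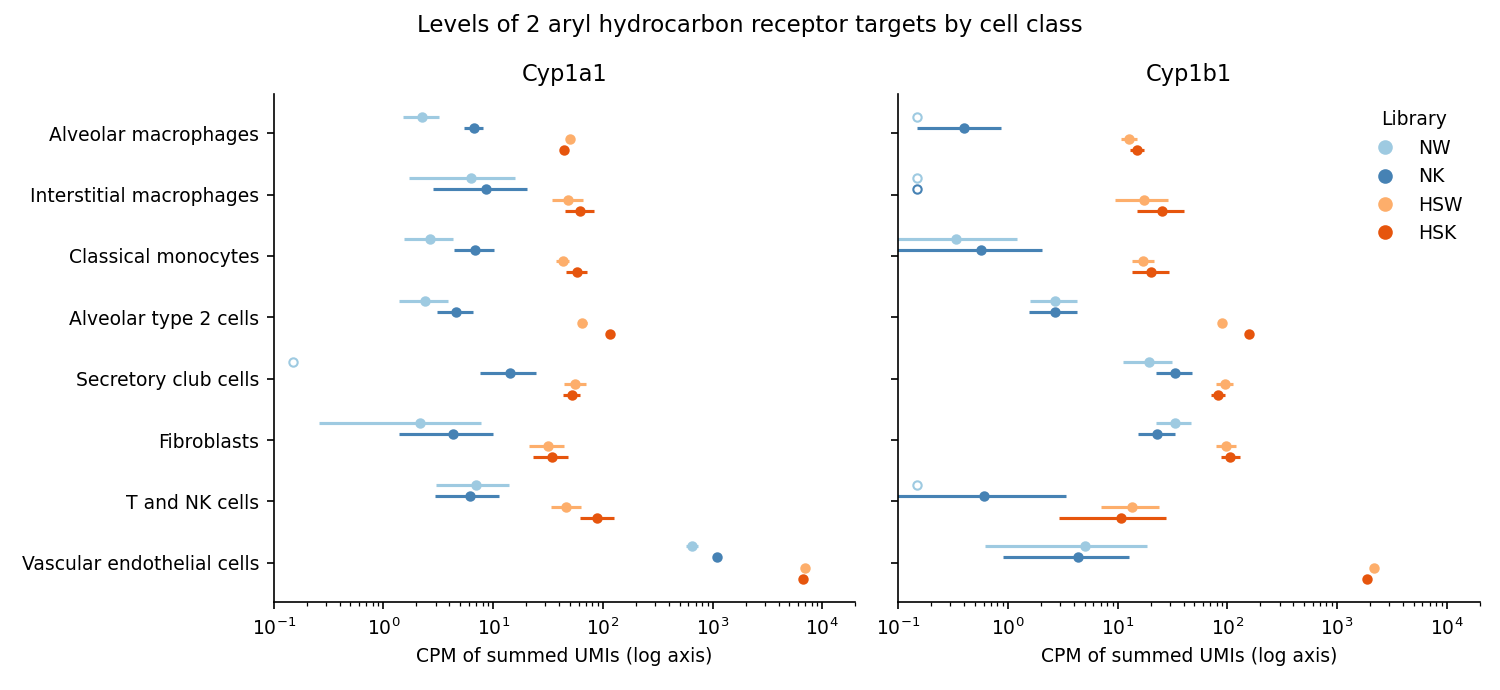
CPM (log axis) of Cyp1a1 and Cyp1b1 in NW, NK, HSW and HSK for the 6 classes, with T and natural killer cells (labelled T and NK cells) and vascular endothelium below them; bars are 95% Poisson intervals, and open circles at the left edge mark 0 UMIs. In every class both HySu libraries lie to the right of both normoxia libraries, and endothelium lies farthest right for Cyp1a1, at 1094 CPM in NK and 6735 CPM in HSK.

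The other AHR targets differed by class. Nqo1, a quinone reductase, went from 2.36 to 10.6 CPM in alveolar type 2 cells (ratio 4.49, 2.59 to 8.33; 1.5 and 5.48 CPM in NW and HSW) and from 0.402 to 2.46 CPM in alveolar macrophages (ratio 6.13, 2.54 to 17.9; 1.57 and 2.52 CPM in NW and HSW). Ahrr, whose promoter held 3 cores, was measured in interstitial macrophages, where it went from 3.47 CPM (2 UMIs) to 28.1 CPM (20 UMIs), a ratio of 8.10 (1.97 to 71.5), with 4.66 and 30.9 CPM in NW and HSW. Lrg1, a secreted modulator of TGF-beta signalling in vessels, was 49.5 CPM in NK and 144 CPM in HSK alveolar macrophages (ratio 2.92, 2.68 to 3.18), against 44.9 and 126 CPM in NW and HSW. Lrg1 was lower in interstitial macrophages, at a ratio of 0.350. Tiparp, an AHR-induced ADP-ribosyltransferase, was not higher past 2-fold in any class, with 41.2 and 23.6 CPM in alveolar type 2 cells and 58.7 and 49.1 CPM in alveolar macrophages. Ahr itself stood at 78.3 and 58.1 CPM in monocytes, and its partner Arnt was past 2-fold lower in monocytes (ratio 0.348) and in alveolar type 2 cells (ratio 0.441).

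Iron storage and glutathione genes lay above the class median in all 6 classes. The list of 25 NRF2 targets and glutathione enzymes had a median 0.14 above that of all measured genes in alveolar macrophages, 0.62 in interstitial macrophages, 0.40 in monocytes, 0.30 in alveolar type 2 cells, 0.26 in club cells and 0.38 in fibroblasts. Few members were past 2-fold higher: 3 of 25 measured in alveolar macrophages, 5 of 18 in interstitial macrophages, 2 of 20 in monocytes, 3 of 24 in alveolar type 2 cells, 0 of 24 in club cells and 4 of 22 in fibroblasts. Those past 2-fold lower numbered 0, 4, 1, 2, 13 and 1, and 0, 0, 0, 1, 2 and 0 after TMM scaling. Among all measured genes 2.7%, 4.5%, 3.01%, 1.78%, 0.263% and 4.05% were past 2-fold higher in CPM. The shares lower were 6.88%, 26%, 18.5%, 21.4%, 67.2% and 16.1%, and no lower count of the list exceeded its share. Ftl1, the ferritin light chain, went from 1678 to 4630 CPM in alveolar macrophages (ratio 2.76, 2.72 to 2.80; 2133 and 3205 CPM in NW and HSW) and from 1005 to 3887 CPM in interstitial macrophages (ratio 3.87, 3.53 to 4.24; 1172 and 2170 CPM in NW and HSW). Its ratio was 2.47 in monocytes, 2.22 in alveolar type 2 cells, 2.40 in fibroblasts and 1.04 in club cells (2.84 there after TMM scaling). Fth1, the heavy chain with ferroxidase activity, went from 7942 to 20667 CPM in interstitial macrophages, a ratio of 2.6 (2.52 to 2.69). Gstp1, a glutathione transferase, had ratios of 2.29 in alveolar macrophages, 2.43 in interstitial macrophages, 2.35 in monocytes, 2.09 in alveolar type 2 cells, 2.05 in fibroblasts and 1.18 in club cells. The canonical stress gene Hmox1, heme oxygenase, did not follow and was past 2-fold lower in monocytes, at 127 CPM in NK and 55.9 CPM in HSK (ratio 0.441).

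Respiratory chain transcripts lay above the class median in every class. Of the 13 mitochondrially encoded genes, 7 were measured, and their median exceeded the class median by 1.33 in alveolar macrophages, 1.60 in interstitial macrophages, 1.75 in monocytes, 1.57 in alveolar type 2 cells, 1.29 in club cells and 1.93 in fibroblasts. The wild-type values were 0.70, 0.99, 1.25, 1.02, 0.67 and 1.09. mt-Cytb, a complex III subunit, went from 1092 to 4026 CPM in monocytes (ratio 3.69) and from 1014 to 4454 CPM in fibroblasts (ratio 4.39). In alveolar type 2 cells it went from 2691 to 5941 CPM (ratio 2.21), in alveolar macrophages from 1172 to 2701 CPM (ratio 2.30) and in club cells from 2391 to 2771 CPM (ratio 1.16). Its ratios in wild-type lungs were smaller in each of these classes, 2.55 in monocytes, 2.26 in fibroblasts, 1.70 in alveolar type 2 cells, 1.56 in alveolar macrophages and 0.982 in club cells. mt-Nd6, the complex I subunit encoded on the other strand, went the other way, with ratios of 0.734, 0.693, 0.543, 0.227 and 0.717 in alveolar macrophages, monocytes, alveolar type 2 cells, club cells and fibroblasts. The share of UMIs from mitochondrial genes, a common sign of RNA quality, counts these same transcripts and is not a separate measure. It was 1.26% and 1.88% in NK and HSK alveolar macrophages, 1.12% and 1.97% in monocytes, and 2.12% and 3.04% in alveolar type 2 cells. Fibroblasts had 0.999% and 2.00%, while in club cells the share fell from 1.54% to 1.33%. The part of RNA quality in these ratios was not tested.

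The nuclear-encoded subunits were displaced the same way. All 75 were measured in each class, with a median above the class median by 0.68 in alveolar macrophages, 1.01 in interstitial macrophages, 1.04 in monocytes, 0.83 in alveolar type 2 cells, 0.69 in club cells and 0.80 in fibroblasts, against 0.38, 0.45, 0.53, 0.45, 0.36 and 0.49 in wild-type lungs. The number with a ratio above 1 was 62, 62, 67, 57, 4 and 67 in that order, while 26.7%, 27.7%, 28.0%, 18.6%, 3.17% and 31.4% of all measured genes had a ratio above 1. Those past 2-fold higher numbered 4, 12, 14, 2, 0 and 15, and those lower 0, 1, 0, 0, 23 and 1. Among all genes 2.7%, 4.5%, 3.01%, 1.78%, 0.263% and 4.05% were past 2-fold higher, so the type 2 cell count was near its share. The shares lower were 6.88%, 26%, 18.5%, 21.4%, 67.2% and 16.1%. Atp5g2, which encodes the c subunit of ATP synthase, went from 22.6 to 79.9 CPM in monocytes (ratio 3.54, 2.63 to 4.79; 25 and 39.8 CPM in NW and HSW) and from 26.7 to 77.1 CPM in alveolar macrophages (ratio 2.88, 2.57 to 3.24; 34.7 and 59.9 CPM in NW and HSW). In club cells its ratio was 0.856, and 2.34 after TMM scaling. These transcripts are short: 34 of 75 were under 1000 bases, with a median of 1141 bases. Ribosomal protein transcripts, with a median of 1109 bases, moved alike, with list medians 0.74, 0.77, 0.88, 1.35, 0.82 and 0.90 above the class median in the knockout and 0.45, 0.49, 0.73, 0.99, 0.63 and 0.79 in the wild type. The part of transcript length in both lists was not tested.

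Alveolar macrophages had the smallest share of genes past 2-fold of the 6 classes under both scalings, and their named genes included 2 of lipid handling. Fabp5, a fatty-acid-binding protein of lipid-laden macrophages, went from 234 to 720 CPM (ratio 3.08, 2.96 to 3.20), with 334 and 596 CPM in NW and HSW. Abca1, which exports cholesterol, went from 156 to 61.3 CPM (ratio 0.393, 0.363 to 0.426), with 90.6 and 50.8 CPM in NW and HSW. NK held the lowest Fabp5 and the highest Abca1 of the 4 libraries. Gng5, a G protein gamma subunit, went from 261 to 752 CPM (ratio 2.88, 2.77 to 2.99; 389 and 680 CPM in NW and HSW), and Atp5g2 and Ftl1 completed the 4 largest ratios. Among the smallest were Fkbp5, a glucocorticoid-induced co-chaperone, at 125 and 47.4 CPM (ratio 0.380, 0.347 to 0.415; 56.1 and 35.1 CPM in NW and HSW), and Ube2g2, a ubiquitin-conjugating enzyme of the endoplasmic reticulum pathway, at 76.8 and 29.5 CPM (ratio 0.384; 58.5 and 36.1 CPM in NW and HSW). Mir6236 was at 305 and 102 CPM (ratio 0.336). Cells of 2 clusters made up the class, and cluster 1 held 58.2% of its NK cells and 71.8% of its HSK cells. Finer clustering within the class placed the 2 libraries further apart, with 986 NK and 59 HSK cells in sub-cluster 0 and 64 NK and 491 HSK cells in sub-cluster 1.

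Of the 28 repair and lipid-associated macrophage genes, 5 were past 2-fold higher in alveolar macrophages and 2 lower, with a median 0.38 above the class median. Among all genes of the class 2.7% were higher and 6.88% lower. Arg1, arginase 1, went from 0.670 to 13.5 CPM (ratio 20.2, 10.8 to 42.9), but the UMIs came from 5 NK cells and 14 HSK cells; NW and HSW held 0.898 and 2.14 CPM. Mmp12, macrophage elastase, went from 7.90 to 78.6 CPM (ratio 9.94, 8.22 to 12.1), with 8.75 and 5.50 CPM in NW and HSW. A single HSK cell held 81.8% of the HSK UMIs of Mmp12, and without the top cell of each library the ratio was 2.02 (1.59 to 2.58). Both genes were thus higher in few cells of the class. Igf1, a growth factor, was 20.2 CPM in NK and 42.0 CPM in HSK (ratio 2.08, 1.8 to 2.39), and 22 and 54.4 CPM in NW and HSW. Mmp14, a membrane metalloproteinase, was lower, at 7.17 and 2.10 CPM (ratio 0.293), and at 8.23 and 1.21 CPM in NW and HSW.

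Interstitial macrophages, 100 NK and 84 HSK cells, showed large ratios in genes of the repair and lipid-associated list. Their cells were spread unevenly over sub-clusters: sub-cluster 0 held 4 NK and 37 HSK cells, and sub-cluster 1 held 41 NK and 0 HSK cells. Sub-cluster 4, with Spp1, Fabp5, Gpnmb and Ctsl among its leading genes, was present in both libraries, with 13 NK and 17 HSK cells. Spp1, osteopontin, went from 284 to 7550 CPM (ratio 26.6, 22.7 to 31.2), with 173 and 1083 CPM in NW and HSW. Gpnmb, a lysosomal transmembrane glycoprotein, went from 36.4 to 1011 CPM (ratio 27.8, 18 to 45.1), with 14.0 and 349 CPM in the wild-type pair. Fabp5 went from 41.6 to 1157 CPM (ratio 27.8, 18.6 to 43.6), with 24.9 and 228 CPM in the wild-type pair. In all 3 genes HSK was the highest of the 4 libraries, HSW followed, and both normoxia libraries were far below. Ctsl, the lysosomal protease cathepsin L, went from 251 to 6218 CPM (ratio 24.7, 21.0 to 29.4), with 159 and 885 CPM in NW and HSW. The knockout log2 ratio exceeded the wild-type one by 2.08 for Spp1 (1.72 to 2.44), 2.15 for Ctsl (1.77 to 2.53) and 1.61 for Fabp5 (0.68 to 2.54), and the difference for Gpnmb was 0.20, with an interval that held 0 (-0.92 to 1.32). Spp1 UMIs came from 21 NK and 32 HSK cells, with 53% and 27.8% of them in the top cell, and the ratio without those cells was 40.8.

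Of the 28 members of the repair and lipid-associated list, 21 had a ratio above 1 in interstitial macrophages, 13 were past 2-fold higher and 1 was lower. Among all genes of the class 4.5% were past 2-fold higher and 26% lower. The list median lay 1.36 above the class median, and 1.35 in wild-type lungs. Chil3, a chitinase-like lectin, went from 1917 to 15842 CPM (ratio 8.26, 7.77 to 8.80), with 913 and 5567 CPM in NW and HSW. Lgals3, galectin-3, went from 763 to 4705 CPM (ratio 6.17, 5.58 to 6.83; 930 and 3225 CPM in NW and HSW), and Retnla, resistin-like alpha, from 29.5 to 213 CPM (ratio 7.24, 4.38 to 12.8; 65.3 and 514 CPM in NW and HSW). These effector genes were higher in both HySu libraries. Arg1 went from 39.9 to 733 CPM (ratio 18.4, 12.1 to 29.3), in 3 NK and 12 HSK cells, with 1.55 and 156 CPM in NW and HSW. Abcg1, a cholesterol exporter, was the member past 2-fold lower, at 222 and 111 CPM. The 12 alveolar macrophage markers summed to 4411 CPM in NK and 17670 CPM in HSK interstitial macrophages, with 3 of them higher. Chil3 is itself 1 of these 12 markers, and most of the HSK sum was Chil3 (15842 of 17670 CPM). The interstitial markers summed to 15414 and 15237 CPM. The part of alveolar macrophage transcripts in this list was not tested.

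**Figure D4:**
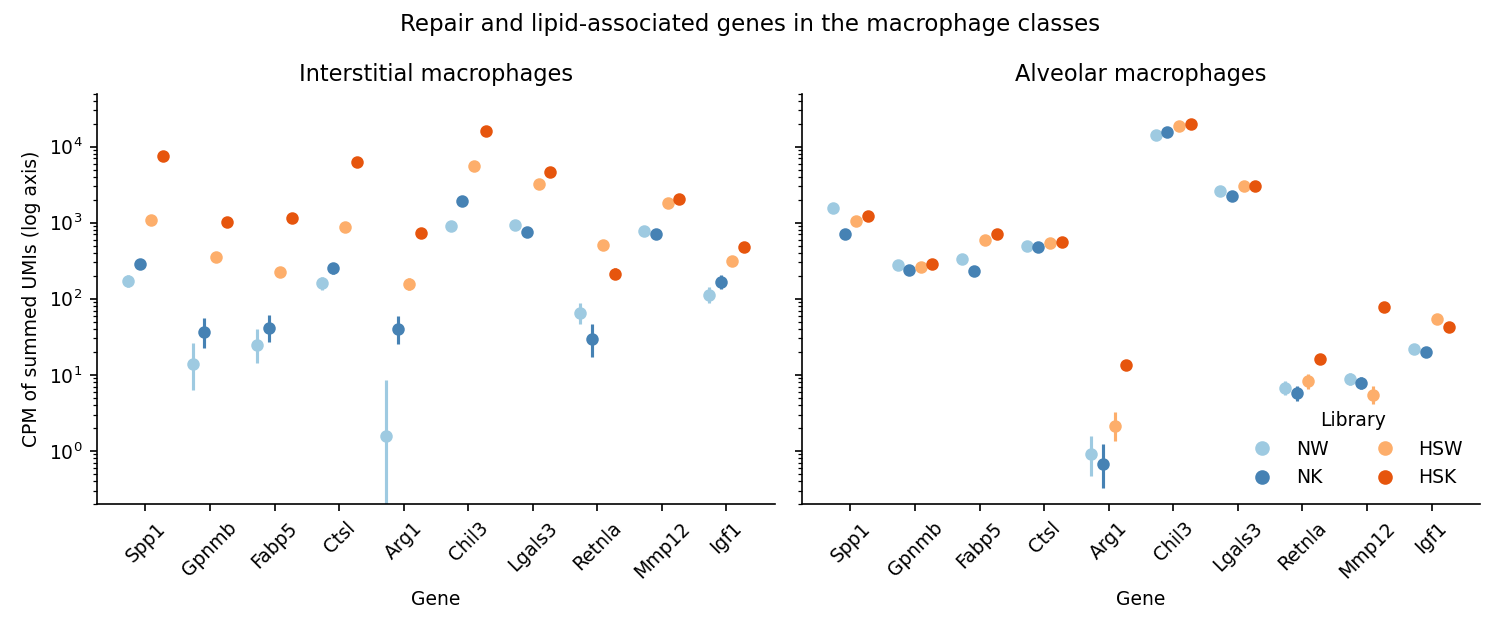
CPM (log axis) of 10 repair and lipid-associated genes in interstitial and alveolar macrophages of the 4 libraries, with 95% Poisson intervals. In interstitial macrophages Spp1, Gpnmb, Fabp5 and Ctsl lie at 1011 to 7550 CPM in HSK and at 36.4 to 284 CPM in NK.

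The genes with the smallest ratios in interstitial macrophages came from few NK cells. Saa3, serum amyloid A3, went from 2349 CPM in NK to 0 in HSK, at least 558-fold lower against a floor of 3 counts, but its 1355 UMIs came from 7 of 100 NK cells, and NW and HSW held 112 and 129 CPM. Prg4, the lubricin gene, went from 317 CPM to 0 (at least 75.3-fold lower), with 183 UMIs in 4 NK cells and 0 CPM in both wild-type libraries. Cd5l, a scavenger protein of tissue macrophages, went from 404 to 1.40 CPM, with 233 UMIs in 6 NK cells, and stood at 0 and 7.43 CPM in NW and HSW. These 3 genes were far higher in NK than in the other 3 libraries. Cxcl13, a B cell attractant, went from 239 to 4.21 CPM (ratio 0.0176, 0.00359 to 0.0525) and from 585 to 95.3 CPM in the wild-type pair. Other chemokines moved both ways: Ccl12 was lower (771 and 177 CPM; 398 and 798 CPM in NW and HSW), and Ccl6 was higher (ratio 2.31). Among the MHC class II genes, which present antigen, Cd74 went from 15586 to 33876 CPM (ratio 2.17, 2.12 to 2.23), and that list's median lay 0.84 above the class median.

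Classical monocytes made up a smaller share of HSK, and Ly96, S100a11 and Ifi202b were among their largest ratios. Sub-cluster 1 held 14 of the NK and 168 of the HSK monocytes. Ly96, which encodes MD-2, the lipopolysaccharide-binding partner of TLR4, went from 10.6 to 69.0 CPM (ratio 6.53, 4.42 to 9.82), with 20.7 and 59.7 CPM in NW and HSW. S100a11, a calcium-binding protein, went from 899 to 3413 CPM (ratio 3.80, 3.63 to 3.97), with 1863 and 3562 CPM in NW and HSW. Ifi202b, an interferon-inducible DNA-binding protein, went from 31.1 to 114 CPM (ratio 3.66, 2.85 to 4.72), with 67.8 and 153 CPM in NW and HSW. In these 3 genes both HySu libraries were above both normoxia libraries and NK was the lowest. Cd177, a surface protein best known on neutrophils, was lower, at 250 and 55.2 CPM (ratio 0.221, 0.172 to 0.279), with 201 and 106 CPM in NW and HSW. Fkbp5 was at 56.6 and 10.9 CPM (ratio 0.193, 0.106 to 0.325; 22.7 and 9.95 CPM in NW and HSW) and Dpy19l1 at 106 and 23.2 CPM (ratio 0.219). In the repair list, Fabp5 was again higher, at 34.9 and 150 CPM (ratio 4.29, 3.42 to 5.42; 48.3 and 82.9 CPM in NW and HSW). Lcn2, an iron-siderophore-binding acute phase protein, was 227 CPM in NK and 615 CPM in HSK (ratio 2.71, 2.45 to 2.98), but 709 and 691 CPM in NW and HSW, so that NK stood apart from the other 3 libraries.

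Alveolar type 2 cells held more Retnla and less of the cholesterol synthesis pathway in HSK. Retnla went from 104 to 822 CPM (ratio 7.93, 7.33 to 8.60), with 188 and 551 CPM in NW and HSW, in 157 NK and 329 HSK cells, and the ratio without the top cell of each library was 6.62. Zfas1, a small nucleolar RNA host gene, went from 77.1 to 263 CPM (ratio 3.42, 3.10 to 3.78), with 64.3 and 241 CPM in NW and HSW. Sprr1a, a cornified envelope protein, went from 12.0 to 56.9 CPM (ratio 4.76, 3.74 to 6.14) in only 9 NK and 12 HSK cells, with 1.95 and 29.6 CPM in the wild-type pair. All 3 genes were higher in both HySu libraries. Prcd went from 18.4 to 59.9 CPM (ratio 3.26; 18.8 and 40.0 CPM in NW and HSW). Among the smallest ratios were Myh7, a myosin heavy chain, at 99.4 and 20.7 CPM (ratio 0.209; 118 and 33.6 CPM in NW and HSW), Lars2, the mitochondrial leucyl-tRNA synthetase, at 74.1 and 18.6 CPM (ratio 0.251; 64.9 and 25.6 CPM in NW and HSW), and Mir6236 at 362 and 80.7 CPM. Lars2 and Mir6236 were lower in all 6 classes, Lars2 at ratios of 0.145 to 0.526, and so were not particular to type 2 cells. Cluster 0 held 78.8% of the NK cells of the class and 52.0% of the HSK cells, and cluster 4 held the rest. Of the finer sub-clusters, sub-cluster 0 held 1018 NK and 38 HSK cells and sub-cluster 1 held 100 NK and 773 HSK cells.

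Of the 19 cholesterol and lipid synthesis genes measured in alveolar type 2 cells, 8 were past 2-fold lower and 0 higher, beside 21.4% lower among all genes, with a median 0.35 below the class median. After TMM scaling 1 was past 2-fold lower. Hmgcs1, which makes HMG-CoA, went from 267 to 79.5 CPM (ratio 0.298, 0.272 to 0.325; 209 and 84.1 CPM in NW and HSW). Fdft1, squalene synthase, went from 165 to 61.0 CPM (ratio 0.369; 131 and 59.98 CPM in NW and HSW). In both genes the HSK and HSW levels were close to each other and both normoxia levels were higher. The surfactant list did not stand apart, with a median 0.06 above that of the class and 0.13 in wild-type lungs. Of its 22 measured members 0 were past 2-fold higher and 3 lower: Srebf1, a lipogenic transcription factor (133 and 53.8 CPM, ratio 0.405), Lpcat1, which remodels surfactant phosphatidylcholine (1819 and 852 CPM, ratio 0.468), and Etv5, a transcription factor that maintains type 2 identity (357 and 169 CPM, ratio 0.472). After TMM scaling their ratios were 0.611, 0.706 and 0.712. Of 18 measured members of the inflammasome, interleukin and NF-kB list, 10 were past 2-fold lower and 1 higher (2 and 1 after TMM scaling), and the list median was 0.67 below the class median. Nlrp3, the inflammasome sensor, was at 6.45 and 1.20 CPM (ratio 0.186), and Il6 was the higher member, at 0.629 and 4.37 CPM (ratio 6.94), in 31 HSK cells. Summed leukocyte markers in type 2 cells moved both ways between NK and HSK, but most single markers were lower in HSK. General leukocyte genes summed to 400 and 215 CPM and non-classical monocyte markers to 155 and 61.0 CPM. Of these, 1 of 6 and 0 of 9 markers were higher in HSK. Neutrophil markers summed to 577 and 777 CPM, with 4 of 9 higher in HSK. Classical monocyte markers summed to 809 and 919 CPM, with 2 of 9 higher. The part of such transcripts in this list was not tested.

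Club cells, 70 NK and 94 HSK cells, were dominated by their secretoglobin. Scgb1a1, the main club cell secretory protein, took 54.1% of NK and 77.8% of HSK UMIs, and 60.9% and 78.7% of NW and HSW UMIs. Scgb3a1, a secretoglobin of the airway, went from 9513 to 11949 CPM (ratio 1.26, 1.23 to 1.29), whereas NW and HSW held 16019 and 7204 CPM. As a mean over cells its knockout log2 ratio was -0.40, so its direction depended on the averaging. Lcn2 was 46.4 CPM in NK and 116 CPM in HSK (ratio 2.51, 1.81 to 3.56; 1.75 without the top cells), and 64.3 and 67.6 CPM in NW and HSW. Only 3.17% of the measured genes had a ratio above 1 on the CPM scale here. Scgb3a2, a related secretoglobin, had a ratio of 0.370 in CPM and 1.01 after TMM scaling, and Cyp2f2, a club cell monooxygenase, 0.435 and 1.19, so that neither had a direction apart from the scaling. The genes with the smallest ratios were lower under both scalings: Myg1 at 186 and 9.66 CPM (ratio 0.0521; 0.142 after TMM scaling), Epha2, an ephrin receptor, at 66.3 and 5.27 CPM (0.0795; 0.217), and Ltf, lactoferrin, at 263 and 25.5 CPM (0.0969; 0.265). Ccr7, a chemokine receptor of lymphocytes and mature dendritic cells, was at 66.3 and 3.51 CPM, with 56.7% of its NK UMIs in 1 cell, and the top NK cell held 54.2% of those of Ltf.

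Fibroblasts, 250 NK and 131 HSK cells, held more of several acute phase transcripts in HSK and fewer of several contractile and cholesterol synthesis transcripts. Of 9 acute phase and airway secretory genes measured, 5 were past 2-fold higher and 0 lower, beside 4.05% and 16.1% among all genes. Their median lay 1.80 above the class median, against 0.58 in wild-type lungs. Saa3 went from 6.84 to 941 CPM (ratio 138, 69.5 to 320), with 7.5 and 496 CPM in NW and HSW. Its UMIs came from 3 NK and 13 HSK cells, and the ratio without the top cells was 137. Hp, haptoglobin, went from 75.2 to 292 CPM (ratio 3.89, 3.04 to 5.00; 134 and 162 CPM in NW and HSW), and Lcn2 from 29.9 to 106 CPM (ratio 3.54, 2.38 to 5.37; 38.6 and 61.6 CPM in NW and HSW). The other 2 members were Scgb1a1 and Scgb3a1, which are club cell transcripts, and the club cell markers summed to 1496 CPM in NK and 3831 CPM in HSK fibroblasts. Both genes are among these 8 markers, of which 2 were higher in HSK. Of 17 chemokines measured, 3 were past 2-fold higher and 4 lower. Ccl8, which attracts monocytes, went from 18.8 to 225 CPM (ratio 12.0, 7.69 to 19.5; 19.3 and 236 CPM in NW and HSW), and Ccl11, eotaxin, from 100 to 399 CPM (ratio 3.99, 3.23 to 4.96; 131 and 447 CPM in NW and HSW). For both, the 2 HySu libraries lay above the 2 normoxia libraries. Ccl2, the main monocyte attractant, was lower, at 59.0 and 24.3 CPM (ratio 0.411, 0.242 to 0.673; 22.5 and 8.35 CPM in NW and HSW).

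Matrix genes of fibroblasts moved little as a list. Of 34 collagen and matrix genes measured, 2 were past 2-fold higher and 3 lower, with a median 0.32 above the class median. Among all fibroblast genes 4.05% were past 2-fold higher and 16.1% lower. Mgp, matrix Gla protein, an inhibitor of calcification, went from 36327 to 74642 CPM (ratio 2.05, 2.03 to 2.08; 39911 and 68300 CPM in NW and HSW), and Timp1, a metalloproteinase inhibitor, from 253 to 601 CPM (ratio 2.38, 2.06 to 2.75; 239 and 502 CPM in NW and HSW). Timp3 was lower, at 3652 and 1797 CPM (ratio 0.492). Of 11 contractile genes measured, 0 were past 2-fold higher and 5 lower (3 after TMM scaling), with a median 0.55 below the class median, and 0.39 below it in wild-type lungs. Tagln, transgelin, went from 215 to 75.0 CPM (ratio 0.350, 0.263 to 0.459; 192 and 47.0 CPM in NW and HSW), and Des, desmin, from 25.6 to 6.62 CPM (ratio 0.258). The 9 smooth muscle markers summed to 625 CPM in NK and 359 CPM in HSK fibroblasts, and their part in this list was not tested. Of 18 cholesterol synthesis genes, 9 were past 2-fold lower and 0 higher (6 and 1 after TMM scaling), with a median 0.60 below the class median, and Hmgcs1 went from 186 to 38.6 CPM (ratio 0.207, 0.141 to 0.297; 71.8 and 18.8 CPM in NW and HSW). Hmgcs1 was thus lower under HySu in type 2 cells and fibroblasts of both genotypes. Thbs1, thrombospondin 1, which activates latent TGF-beta, went from 1073 to 155 CPM (ratio 0.145, 0.121 to 0.173; 838 and 162 CPM in NW and HSW), and Nr4a3, an immediate early nuclear receptor, from 119 to 13.2 CPM (ratio 0.111; 49.3 and 8.35 CPM in NW and HSW). Jph2 and Stk40 had ratios of 0.141 and 0.157.

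The genes with the largest fibroblast ratios came from single cells. Sncg, gamma-synuclein, went from 0 to 223 CPM (at least 86.9-fold higher against a floor of 3 counts), with 202 UMIs in 2 HSK cells and 98.5% of them in 1. Thbs4, Snap25 and Stmn3 went from 0 to 127, 123 and 116 CPM, with 115, 112 and 105 UMIs in 1 HSK cell each. Snap25 and Stmn3 are best known as neuronal transcripts. These 4 genes describe 1 or 2 cells and not the class.

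Some genes differed in the same direction in all 6 classes. Of 912 genes with at least 50 CPM in every class, 8 were higher in HSK with intervals above 1 in every class and 268 were lower. Both counts are on the CPM scale, where only 3.17% of club cell genes had a ratio above 1, so their imbalance depends on the scaling. They were not counted after TMM scaling. Sec61g, a subunit of the protein translocation channel, had ratios of 2.62 in alveolar macrophages, 3.24 in interstitial macrophages, 2.76 in monocytes, 1.80 in alveolar type 2 cells, 2.18 in club cells and 2.79 in fibroblasts. Gng5 had ratios from 1.58 in club cells to 3.60 in interstitial macrophages, and Edf1, a transcriptional coactivator, from 1.36 in club cells to 2.65 in monocytes. The other 3 were transcripts of particular cells found in every class. S100a8 and S100a9, the calprotectin subunits of neutrophils, had ratios of 1.58 to 3.18 and 1.29 to 1.76, and Scgb1a1 of 1.44 to 3.46. Neutrophil markers summed to 647 CPM in NK and 1068 CPM in HSK alveolar macrophages, 1566 and 2837 CPM in monocytes and 577 and 777 CPM in alveolar type 2 cells. Club cell markers summed to 1493 and 4755 CPM in alveolar macrophages, 1882 and 5497 CPM in monocytes, and 2292 and 6597 CPM in alveolar type 2 cells. The neutrophil list holds S100a8 and S100a9 and the club cell list holds Scgb1a1, so these sums include the genes themselves. In alveolar macrophages, monocytes and type 2 cells, 4, 5 and 4 of 9 neutrophil markers were higher in HSK. Of 8 club cell markers, 5, 3 and 3 were higher. The part of free RNA in these genes was not tested.

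The 6 shared lower genes named by rule included the transcription factors Jund, Nr4a1 and Cebpb. Jund, an AP-1 subunit, had ratios of 0.512 in alveolar macrophages, 0.486 in interstitial macrophages, 0.490 in monocytes, 0.495 in alveolar type 2 cells, 0.164 in club cells and 0.411 in fibroblasts. Nr4a1, an orphan nuclear receptor, had ratios of 0.514, 0.491, 0.398, 0.446, 0.173 and 0.401 in that order. Cebpb, a myeloid and epithelial transcription factor, had ratios of 0.518, 0.361, 0.387, 0.478, 0.248 and 0.449. Ppp3ca, the calcineurin catalytic subunit, Zfp91 and Mir6236 completed the 6, at 0.201 to 0.504, 0.192 to 0.512 and 0.194 to 0.407. Other abundant non-coding transcripts were lower in CPM in all 6 classes as well: Malat1 had ratios of 0.539 to 0.742, Gm42418 of 0.324 to 0.572 and Gm23935 of 0.0636 to 0.464. After TMM scaling Malat1 turned higher in interstitial macrophages (ratio 1.08) and club cells (1.49), while Gm42418 and Gm23935 stayed below 1 in all 6 classes. Their part in the makeup of the 2 libraries was not tested. All 6 shared lower genes stayed below 1 after TMM scaling. The 6 shared higher genes could not turn, because TMM scaling raised the ratios in every class. The immediate early list of 23 genes as a whole lay below the class median by 0.32 in alveolar macrophages, 0.09 in interstitial macrophages, 0.21 in monocytes, 0.56 in club cells and 0.57 in fibroblasts, and above it by 0.22 in alveolar type 2 cells.

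Clock genes lay below the class median in 5 of the 6 classes. Of the members measured, 3 of 15 were past 2-fold lower in alveolar macrophages, 2 of 6 in interstitial macrophages, 5 of 11 in monocytes, 10 of 16 in alveolar type 2 cells, 5 of 7 in club cells and 7 of 13 in fibroblasts, and 0 were past 2-fold higher. The shares of all genes past 2-fold lower were 6.88%, 26%, 18.5%, 21.4%, 67.2% and 16.1% in that order, so the club cell count was near its background. After TMM scaling 2, 1, 4, 6, 2 and 5 were past 2-fold lower in that order, and 1 was higher in fibroblasts. The list median minus the class median was -0.53, 0.18, -0.26, -0.77, -0.47 and -0.63 in that order. Per1, a core repressor of the clock, which glucocorticoids also induce, went from 99.5 to 51.6 CPM in alveolar macrophages (63.6 and 30.8 CPM in NW and HSW), from 158 to 58.1 CPM in monocytes (101 and 57.9 CPM) and from 45.1 to 12.4 CPM in alveolar type 2 cells (17.4 and 7.30 CPM). NK was the highest of the 4 libraries in each of these 3 classes. Dbp and Hlf, clock-controlled transcription factors, were at 29.1 and 3.31 CPM and at 37.6 and 2.21 CPM in NK and HSK fibroblasts, with 11.8 and 26.1 CPM of Dbp in NW and HSW. Of the 18, 16, 18, 18, 15 and 19 glucocorticoid-induced genes measured, 3, 8, 7, 8, 11 and 4 were past 2-fold lower, and 3, 4, 3, 2, 2 and 2 after TMM scaling, with list medians -0.36, -0.34, -0.43, 0.03, -0.26 and -0.32 from the class median. Fkbp5 had ratios of 0.131 in interstitial macrophages, 0.432 in alveolar type 2 cells and 0.903 in fibroblasts. The time of day at which lungs were taken is not given in the sources used here.

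Pathways linked to hypoxia or to mitochondrial quality control stood mostly close to the class median. The list of 32 HIF targets and glycolytic genes lay at -0.02, 0.09, 0.15, -0.06, -0.12 and 0.24 from it. Gapdh, a glycolytic enzyme, had ratios of 2.47, 2.56, 2.89, 2.26, 0.984 and 3.43. The 24 mitophagy and autophagy genes lay at 0.08, 0.56, -0.01, -0.01, 0.22 and 0.24. Members past 2-fold higher numbered 0 in 5 classes and 1 in fibroblasts, Map1lc3b, the autophagosome protein LC3B (256 and 541 CPM). Those past 2-fold lower numbered 0, 2, 3, 2, 12 and 0 of 22, 19, 21, 22, 18 and 21 measured. After TMM scaling 1, 3, 1, 1, 1 and 2 members were higher and 0, 1, 2, 0, 0 and 0 lower. Among all genes 2.7%, 4.5%, 3.01%, 1.78%, 0.263% and 4.05% were past 2-fold higher in CPM. The shares lower were 6.88%, 26%, 18.5%, 21.4%, 67.2% and 16.1%, so the club cell count was near its background. Pink1, a kinase that marks damaged mitochondria, was at 59.7 and 22.5 CPM in monocytes (ratio 0.377; 38.0 and 39.6 CPM in NW and HSW) and at 72.8 and 23.9 CPM in interstitial macrophages (ratio 0.328; 38.9 and 28.5 CPM in NW and HSW). In both classes NK held the highest Pink1 level of the 4 libraries. The integrated stress response list lay at -0.23, 0.33, 0.34, -0.01, 0.00 and -0.05, and Atf4, its central transcription factor, was past 2-fold lower in alveolar macrophages (231 and 103 CPM, ratio 0.445), type 2 cells (117 and 54.0 CPM, ratio 0.462) and fibroblasts (272 and 105 CPM, ratio 0.385). The p53 list lay at -0.12, 0.19, 0.05, 0.20, 0.08 and 0.31, and the interferon list at -0.08, 0.32, 0.02, 0.02, 0.17 and -0.03.

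**Figure D5:**
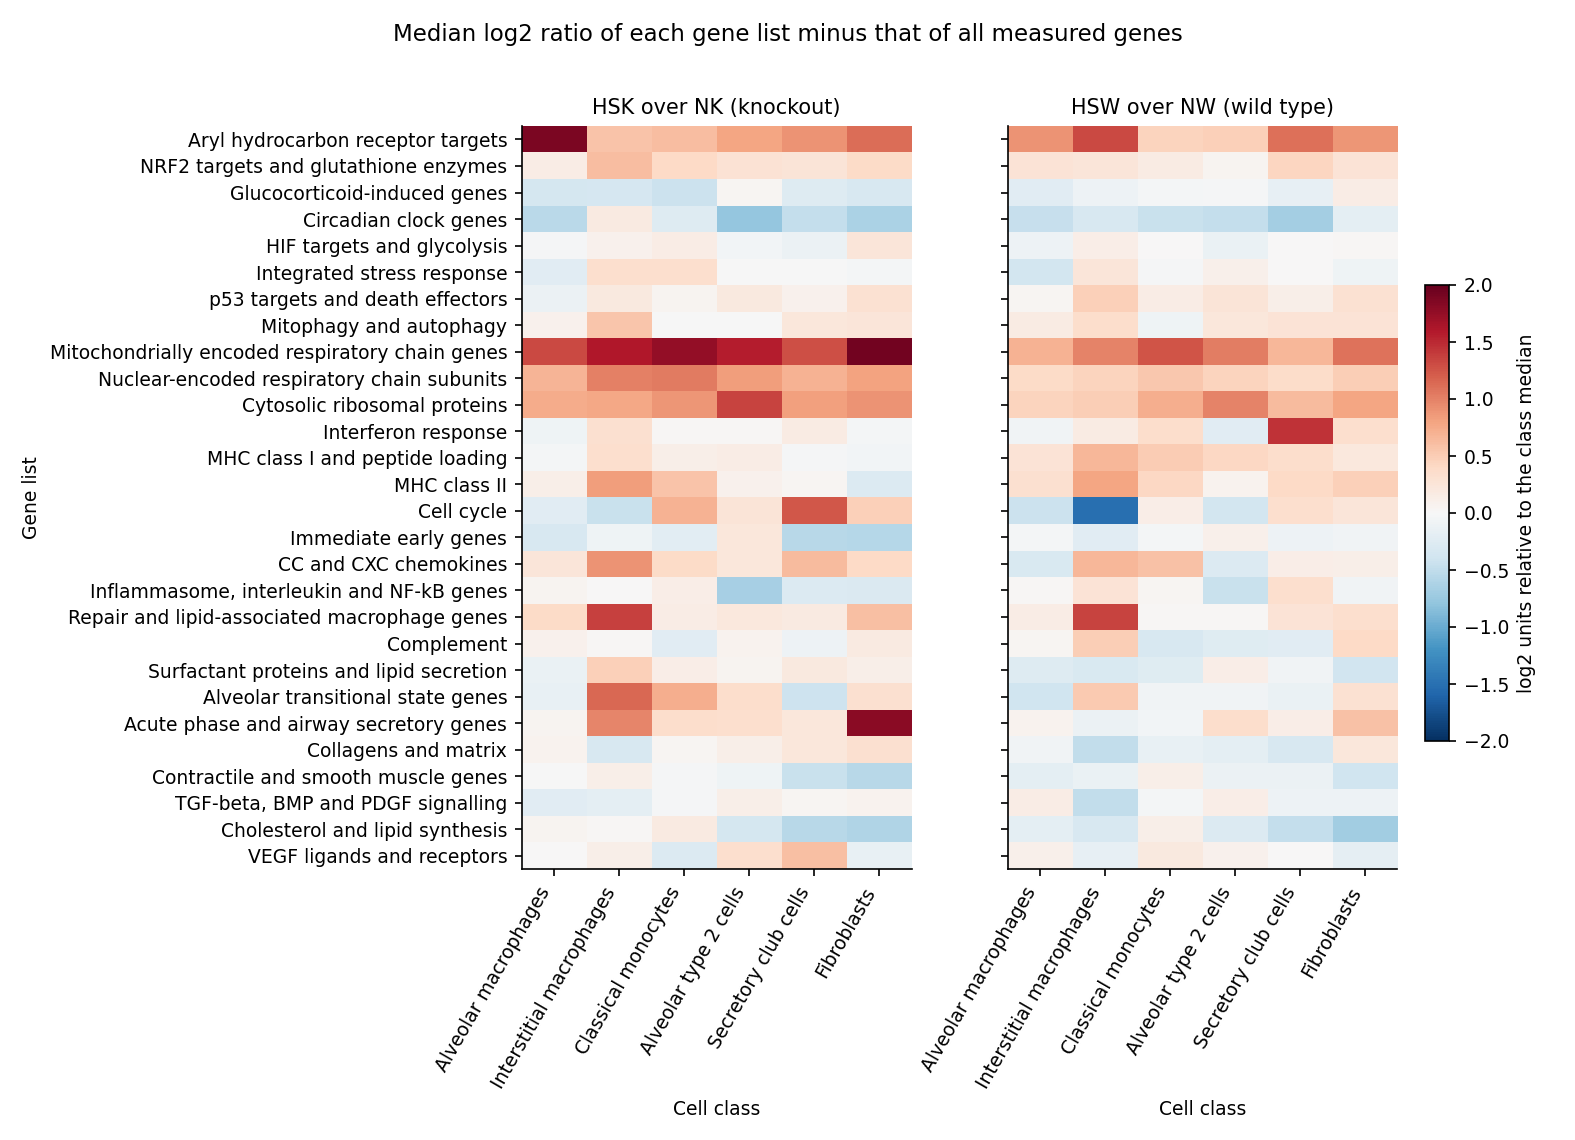
Median log2 ratio of HySu to normoxia of each gene list minus the median of all measured genes of the class (colour), for the knockout pair on the left and the wild-type pair on the right. Mitochondrially encoded genes, nuclear respiratory chain subunits and ribosomal proteins are above 0 in all 6 classes of both genotypes, with the larger values in the knockout.

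The knockout pair was set beside the wild-type pair gene by gene. Over all genes measured in both pairs, the knockout log2 ratio exceeded the wild-type one beyond counting error in 12.4% of genes in alveolar macrophages, 9.23% in interstitial macrophages, 10.9% in monocytes, 8.17% in alveolar type 2 cells, 3.42% in club cells and 8.13% in fibroblasts. It fell short in 21%, 12.9%, 13.4%, 15.6%, 15.2% and 8.46%. Of the 75 nuclear-encoded subunits, the knockout log2 ratio exceeded the wild-type one beyond counting error in 46 in alveolar macrophages, 35 in interstitial macrophages, 52 in monocytes, 46 in alveolar type 2 cells, 7 in club cells and 35 in fibroblasts, and it fell short in 8, 3, 0, 3, 12 and 0. For the mitochondrially encoded genes it exceeded in 6 of 7 in each class but club cells, where it did in 5. The NK level was below NW for mt-Cytb in every class named above, while HSK and HSW lay closer, as in monocytes with 1092, 4026, 1649 and 4199.6 CPM in NK, HSK, NW and HSW. Ribosomal protein genes exceeded in 44, 22, 36, 48, 3 and 14 of 57, and immediate early genes fell short in 16, 4, 13, 6, 16 and 10 of 22, 20, 21, 21, 20 and 22 measured. MHC class I and peptide loading genes fell short as well. Their median lay at -0.03, 0.34, 0.12, 0.16, -0.02 and -0.06 from the class median in the knockout and at 0.27, 0.66, 0.51, 0.42, 0.35 and 0.21 in the wild type. Of the 18, 15, 18, 17, 14 and 16 members measured, the knockout ratio was below the wild-type one beyond counting error in 9, 2, 9, 8, 7 and 9, and above it in 1 in alveolar macrophages and 0 in the other classes. H2-K1, a classical class I heavy chain, had ratios of 0.771 in the knockout and 0.992 in the wild type in alveolar macrophages, 0.721 and 1.18 in monocytes, and 0.789 and 0.933 in fibroblasts. Each such difference rests on 4 libraries, 1 a group, and was not tested across mice.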

How the data were processed

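Single lung cells were captured in microwells (Singleron GEXSCOPE) from 4 libraries, each pooled from 5 mice, and the authors deposited whole-number UMI counts per gene and cell barcode. The submitters' processing notes list STAR 2.6.1a, featureCounts 2.0.1, cutadapt 1.17, Scanpy, and the builds GRCm38 and mm10. Whether counting used strand is not given in the sources used here, so reads of overlapping genes may be mixed.

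Cells with at least 200 genes and at most 20% mitochondrial UMIs were kept. Barcodes with marker UMIs of a second lineage above 0.15 of that lineage's reference level, and at least 3 UMIs, were removed as mixed. Scrublet called only 0.0109% to 0.727% of barcodes and did not work as a caller. Cells of the 4 libraries were clustered together (scanpy 1.11.5, leidenalg 0.10.2; 2000 variable genes, 40 components, 20 neighbours, resolution 1.0) and classes named from marker lists, so cell types are rebuilt names and not the authors' annotation. A rule that let a marker score of 0.75 stand without a leading marker was added after the data were seen and bears on endothelium only.

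UMIs were summed by class and library, and ratios of CPM were given with exact conditional binomial intervals (scipy 1.17.1), shares with Clopper-Pearson intervals and levels with Poisson intervals. With 1 library a group no test between conditions was made. The ratio calculation was tested on simulated data. Genes were named by rule: the 4 largest and 4 smallest ratios per class among genes with at least 30 UMIs, 50 CPM and 30% of the highest class's level, the 6 shared genes per direction, and up to 4 members of each list past 2-fold with those that define it. Some genes that met the rule are not reported here. Members, lists and tests were chosen with earlier results of these data known. Nqo1, Lrg1, Ahrr, Igf1, Mmp14, Pink1, Map1lc3b, Gapdh, Atf4, Nlrp3, Ccl12, Ccl6, Scgb3a2, Cyp2f2, H2-K1, Dbp and Hlf, and Lcn2 outside fibroblasts, were picked after their values were seen. PCR and capture are shared by all UMIs of a library, so intervals cover counting error only. Promoters come from the RefSeq table on GRCm38.p6, which names the same build as the submitters' notes.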

Additional observations from a re-analysis of the deposited data

Results flagged for a closer look

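A few transcripts moved in opposite directions in the 2 genotypes, each difference resting on 1 library a group and not tested across mice. S100a8 had HSK to NK ratios of 2.01 in alveolar macrophages, 1.58 in alveolar type 2 cells, 3.18 in classical monocytes, 1.99 in fibroblasts and 1.84 in interstitial macrophages. The HSW to NW ratios in the same order were 0.773, 0.571, 0.616, 0.823 and 0.401. S100a9 had knockout ratios of 1.55, 1.29, 1.76, 1.48 and 1.33 and wild-type ratios of 0.610, 0.531, 0.447, 0.705 and 0.459. These calprotectin transcripts were thus higher under HySu in the knockout and lower in the wild type in each of the 5 classes, except that in interstitial macrophages the knockout log2 ratios were -0.40 and -0.95 where only Scrublet calls were removed. The difference of log2 ratios ranged for S100a8 from 1.27 in fibroblasts (0.99 to 1.56) to 2.37 in monocytes (2.27 to 2.47).

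Scgb1a1 in fibroblasts had a ratio of 2.70 in the knockout and 0.563 in the wild type. Scgb3a1 in club cells had a ratio of 1.26 in the knockout and 0.450 in the wild type, and its knockout log2 ratio as a mean over cells was -0.40, so the opposite directions were then lost. The neutrophil marker list holds S100a8 and S100a9, and the club cell list holds Scgb1a1 and Scgb3a1. The marker sums given above are therefore not separate from these transcripts. Of 9 neutrophil markers 4 were higher in HSK alveolar macrophages, and of 8 club cell markers 2 were higher in HSK fibroblasts. The part of RNA from other cells was not tested.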

How the results depend on the processing

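No paired analysis was possible because each group was 1 pooled library. All 114 named ratios kept their direction under TMM scaling, a common UMI minimum and thinning, and 37 of 37 when clusters were weighted equally. TMM scaling raised the ratios in every class, so it could turn only ratios below 1. Leaving out the top cell of each library (chosen after seeing the data) left fibroblast Thbs4, Snap25 and Stmn3 with 0 UMIs. TMM scaling gave 678 higher and 424 lower genes in alveolar macrophages, 864 and 635 in interstitial macrophages, 706 and 748 in monocytes, 932 and 517 in alveolar type 2 cells, 490 and 353 in club cells and 717 and 695 in fibroblasts. It turned club cell list medians to 0.30 (NRF2), 0.0402 (integrated stress), 0.12 (p53), 0.26 (mitophagy), 0.21 (interferon), 0.0166 (MHC class I), 0.0729 (MHC class II), 0.22 (repair), 0.23 (surfactant), 0.27 (acute phase), 0.26 (collagens) and 0.0843 (TGF-beta). A minimum of 50 UMIs, which tests fewer genes, gave 229 and 577 in alveolar macrophages, 188 and 892 in interstitial macrophages, 218 and 872 in fibroblasts and 1669 lower in club cells. A minimum of 1 UMI gave 467 higher in monocytes and 569 in fibroblasts. Thinned cells gave 1055 lower in interstitial macrophages, 915 lower in club cells and 237 and 836 in fibroblasts. A mean over cells gave 37 higher in club cells and a log2 ratio of -0.40 for Scgb3a1 there.

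Removing only Scrublet calls gave 61 higher in club cells, 2521 lower in fibroblasts, ratios of shares of 1.75 (alveolar macrophages), 2.06 (alveolar type 2 cells) and 0.528 (fibroblasts), and log2 ratios of -0.40 for S100a8 and -0.95 for S100a9 in interstitial macrophages. With the common minimum the ratios of shares were 0.923 in alveolar macrophages, 0.659 in monocytes, 2.17 in alveolar type 2 cells, 1.62 in club cells and 1.58 in fibroblasts. B, plasma, ciliated and smooth muscle cells formed no named cluster with only Scrublet calls removed. Classes were named anew in that setting, so fibroblasts, T and natural killer cells and type 1 dendritic cells were not made up of the same cells. The causes were not tested. With 70 to 131 cells in the smaller libraries, club cells, interstitial macrophages and fibroblasts give the widest intervals.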

Other observations

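Grem1, a BMP antagonist, went from 0 to 64.0 CPM in fibroblasts, from a single HSK cell. Il6 in fibroblasts was 13.7 CPM in NK (10 cells) and 40.8 CPM in HSK (12 cells), a ratio of 2.98 (1.62 to 5.74), and 33.2 and 27.1 CPM in NW and HSW. Both were chosen after their values were seen.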
